A study of Mus musculus with 10 samples.

Results

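Il7r and 9 other genes of signalling by IL-4, IL-7, IL-15 and related cytokines were examined: the receptor genes Il7r, Il2rg, Il4ra, Il13ra1, Il21r and Il15ra, the cytokine gene Il15, the kinase genes Jak1 and Jak3, and the transcription factor gene Stat6. They are 10 of the 55487 gene rows of the deposited table and were chosen by measured values, because Il7r stood high in these libraries while T cell genes stood low. All 10 passed the expression filter used for testing, which left 13930 genes. Their levels are therefore given as a description, and tests are given only for how they varied between libraries and genotypes.

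The libraries came from MC38 tumours, grown from a mouse colon carcinoma line, in mice with wild-type Ptpn22 (WT) or with an alanine in place of a serine of its product Pep, a tyrosine phosphatase (S452A). Every mouse, WT included, carried a tumour: MC38 cells were injected at 8 weeks of age, and tumours were taken 18 days later and dissociated with collagenase. Cells sorted as CD8+ T cells gave the RNA, of which 40 ng went into each strand-specific library, with 5 libraries from separate mice per genotype. The mutation is written S425A in the design text of the series and S452A in its title and in the labels, and S452A is used here. Nothing in the labels says in which cells the mutation is present or whether littermates were compared.

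The cytokines of this family signal through shared receptor chains. The common gamma chain, encoded by Il2rg, pairs with the IL-7 receptor chain (Il7r), the IL-4 receptor chain (Il4ra), the IL-21 receptor chain (Il21r) and, together with Il2rb, binds IL-15 that another cell presents on Il15ra. JAK1 sits on the cytokine-specific chains and JAK3 on the common gamma chain, and they phosphorylate STAT factors, STAT5 after IL-7 or IL-15 and STAT6 after IL-4 or IL-13. Il13ra1 pairs with Il4ra in a receptor for IL-4 and IL-13 that lacks the common gamma chain, and Crlf2 pairs with Il7r in the receptor for TSLP, which uses JAK2 in place of JAK3. Il7r is best known on naive and memory T cells, innate lymphoid cells and precursors of B cells, and Il4ra and Stat6 are known in macrophages for the response to IL-4.

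Since the question is what Il7r varies with, short stretches before transcription starts were read for letters bound by factors known at this receptor or in cytokine signalling. RefSeq promoters (GRCm38.p6) were found for 9 of the 10 genes, all but Il15. The first 250 bases before the start were searched on both strands for AGGAAGT (ETS), TGTTTAC (FOXO), GGNNTTTCC (NF-kB), TGANTCA (AP-1) and TTCNNNGAA (STAT5), where N is any base. The letters occurred in 7.69%, 3.17%, 4.93%, 6.75% and 7.02% of 32851 promoters, in that order. Il7r held the ETS and the STAT5 letters, Il21r the FOXO letters and Il15ra the AP-1 letters. The RefSeq start used for Il7r lies downstream of the start of its GENCODE gene, so both stretches fall inside that gene, and GENCODE exons cover 86 of the 250 bases. The Il15ra stretch likewise lies inside the gene, before the later of 2 RefSeq starts, where exons cover 117 of the 250 bases; no letters were found before the earlier start. The stretches are printed 5′ to 3′ on the strand of the gene, with the matched letters in capitals. Il7r lies on the minus strand, and its ETS letters, 49 bases before the start, read as the reverse complement. Il15ra and Il21r lie on the plus strand.
Il7r, ETS letters, chr15:9529907-9529936: cttttgctcagACTTCCTgtttctggcact
Il7r, STAT5 letters, chr15:9529999-9530028: gttcaggagcTTCAGGGAAtaccaagatgc
Il15ra, AP-1 letters, chr2:11705671-11705700: ggtggggatgcTGAGTCAcagatctgtcac
Il21r, FOXO letters, chr7:125603380-125603409: gggcggggcacTGTTTACcacatcccctcc
The gene whose values were most like those of Il7r, Sgms2, has several RefSeq starts on the minus strand of chromosome 3. Over all of them together it held every set of letters searched except NF-kB, and some starts had none. The percentages above are per single promoter, so a gene with more starts has more occasions for a match. Of the 16 genes called with Il7r below, 13 had RefSeq promoters. Among them Sgms2 alone held the ETS and the FOXO letters. The STAT5 letters were held by 4 genes (Dtx2, Sgms2, Sod2 and Zeb2). The AP-1 letters were held by 3 (Hilpda, Sgms2 and Zeb2) and the NF-kB letters by 2 (Ier3 and Rgl1). Several of these genes have more than 1 start, so no like share over all genes is given. The Zeb2 stretches with STAT5 letters lie wholly within GENCODE exons. The stretch before 1 start of Sgms2 is shown, picked because it holds overlapping STAT5 and ETS letters, and the capitals mark their joint span.
Sgms2, chr3:131489043-131489292: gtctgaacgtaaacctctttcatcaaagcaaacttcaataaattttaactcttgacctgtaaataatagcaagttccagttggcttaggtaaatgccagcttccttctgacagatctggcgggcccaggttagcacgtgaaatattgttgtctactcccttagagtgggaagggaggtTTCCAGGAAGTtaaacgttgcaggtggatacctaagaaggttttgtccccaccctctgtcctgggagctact
A match is a description of letters, and binding was not measured.

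Il7r stood at the highest mean level of the 10 genes. Il7r (ENSMUSG00000003882, chromosome 15, 9505788 to 9530176, minus strand, GRCm38) was at 82.4, 148, 104, 199.6 and 113 TPM in WT libraries 1 to 5. TPM is transcript abundance per length, scaled to a fixed total. The S452A libraries, in the same order, held 152, 147, 313, 203 and 125 TPM of it. WT 4 and S452A 3 were the highest of their genotype and WT 1 the lowest of all, and the genotypes overlapped. Among the tested genes of each library, Il7r lay between the percentiles 88.2 and 96.2. Over the 10 libraries it averaged 158.7 ± 66.6 TPM (SD, n = 10).

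**Figure D1:**
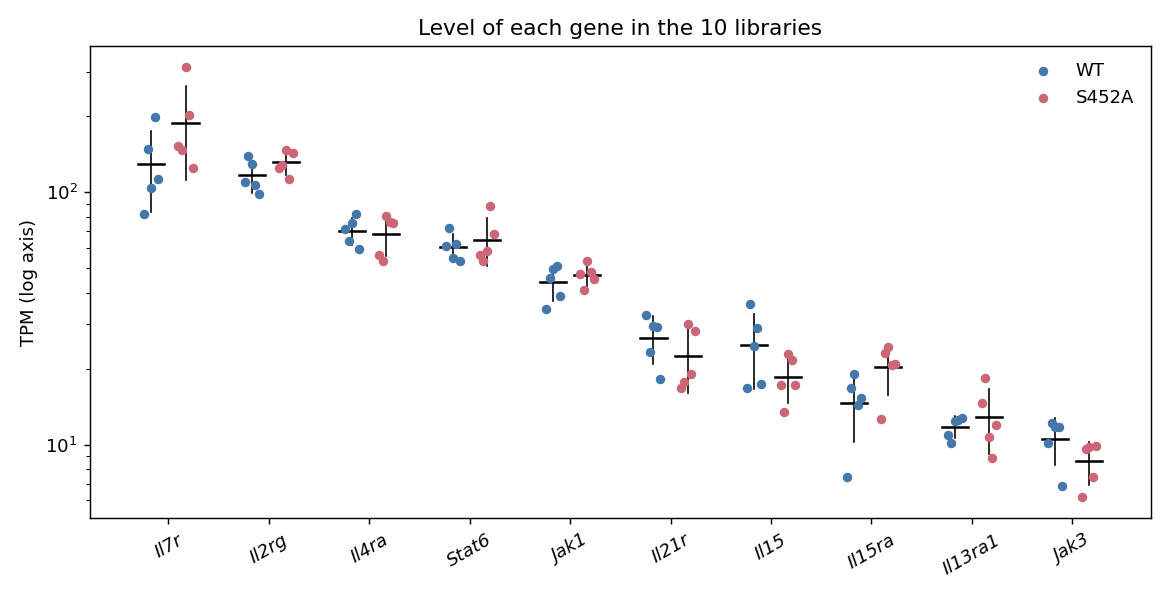
TPM of the 10 genes on a log axis, ordered by mean level, in 5 WT (blue) and 5 S452A (red) libraries; points are libraries, horizontal lines means and vertical lines SD. Il7r ranges from 82.4 to 313 TPM, and the genotypes overlap for every gene.

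The other 9 genes lay below it in mean TPM, and several neighbours in the order were not separated. Il2rg averaged 124 ± 16.5 TPM and lay below Il7r in 7 of 10 libraries, with overlapping ranges. Il4ra averaged 69.5 ± 10.3 TPM, below Il2rg in every library without overlap, and Stat6 62.9 ± 10.8 TPM, overlapping Il4ra. Jak1, at 45.5 ± 5.81 TPM, was below Stat6 in all 10 libraries although their ranges overlapped. Il21r (24.4 ± 6.08), Il15 (21.6 ± 6.89), Il15ra (17.5 ± 5.20), Il13ra1 (12.3 ± 2.65) and Jak3 (9.56 ± 2.11 TPM) followed. Each of these last 5 overlapped its neighbour in the order, and Il21r did not overlap Jak1.

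T cell transcripts were scarce beside the sorting label, so every level given here is that of a mixed sample. Summed over 8 T cell genes (Cd8a, Cd8b1, Trac, Trbc1, Trbc2 and the CD3 chain genes Cd3d, Cd3e and Cd3g), TPM was 12.1 to 126 among WT and 15.0 to 135 among S452A libraries, and none of the genes was at 0 in all libraries. Summed over 8 macrophage genes (Apoe, Lyz2, Cd14, Cd68, Adgre1, Csf1r, C1qa and C1qb), it was 16486 to 23049 and 17341 to 22930 TPM. In bulk RNA, fewer cells of a type and less RNA per cell cannot be told apart. The 7 genes for innate lymphoid cells summed to 3.99 to 17.8 TPM in WT and 5.13 to 11.5 TPM in S452A, with none at 0 throughout. The 7 genes for B cells and their precursors summed to 4.90 to 9.94 and 3.16 to 19.6 TPM, and Rag1 and Igll1 were listed at 0 in every library. The 8 genes for mature dendritic cells summed to 153 to 184 and 151 to 205 TPM.

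Il15 was the only cytokine gene of the family above the filter. It was at 16.8, 36.2, 24.6, 29.1 and 17.3 TPM in WT libraries 1 to 5 and at 17.2, 13.4, 22.8, 21.6 and 17.2 TPM in the S452A libraries. WT 2 was highest and S452A 2 lowest. WT 2, 3 and 4 lay above all S452A libraries, and WT 1 and 5 lay among them. The genes of the other 7 ligands, Il2, Il4, Il7, Il9, Il13, Il21 and Tslp, were under the filter. Il7 and Tslp, the ligands of Il7r, reached at most 1.32 and 1.01 TPM, Il4 reached 1.28 TPM and Il13 0.44 TPM, and Il21 was listed at 0 in all 10 libraries.

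Receptor chains for several of these absent or low ligands were present. Il2rg, the shared chain, was at 109.6, 139, 129, 107 and 98.3 TPM in WT libraries and, in S452A libraries, at 125, 129, 147, 113 and 143 TPM, a narrow range. Il4ra was at 71.5, 64.2, 75.4, 81.9 and 59.7 TPM in WT libraries and, in S452A libraries, at 56.3, 53.6, 80.7, 76.5 and 75.3 TPM, and S452A 1 and 2 were the lowest. Il13ra1, its partner, lay between 8.84 and 18.4 TPM, and Il13ra2, a decoy receptor for IL-13, was under the filter.
Il21r was at 32.6, 23.3, 29.4, 29.2 and 18.2 TPM in WT libraries and, in S452A libraries, at 16.8, 17.7, 29.97, 19.1 and 28.3 TPM. WT 2 and 5 and S452A 1, 2 and 4 were the lowest of their genotype. Il15ra, which presents IL-15, was at 7.45, 16.7, 19.0, 14.3 and 15.3 TPM in WT libraries and, in S452A libraries, at 12.6, 23.2, 24.4, 20.6 and 20.9 TPM. WT 1 was low, and 4 of 5 S452A libraries lay above all WT libraries.
Of chains that pair with these receptors, Crlf2 was at 67.0 to 108 TPM, Il2ra at 6.67 to 15.7 TPM and Il2rb, the beta chain for IL-2 and IL-15, at 0.80 to 9.05 TPM. Il9r was under the filter. Thus Crlf2 was at a level near that of Il4ra, while Il2rb was under 1 TPM in WT 2 and S452A 1.

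Among the kinases, Jak1 was at 34.6, 45.8, 49.7, 51.0 and 38.9 TPM in WT libraries and, in S452A libraries, at 47.3, 41.1, 53.5, 48.3 and 45.3 TPM. Jak3, the partner of the common gamma chain, was at 10.2, 12.2, 11.8, 11.7 and 6.82 TPM in WT libraries and, in S452A libraries, at 6.20, 9.62, 9.80, 7.44 and 9.90 TPM. Jak1 was therefore above Jak3 in each library. Jak2 lay at 35.8 to 80.1 TPM with its highest value in S452A 3, and Tyk2 at 8.63 to 12.4 TPM.
Stat6 was at 61.2, 72.0, 54.9, 62.5 and 53.4 TPM in WT libraries and, in S452A libraries, at 56.3, 53.5, 58.6, 87.9 and 68.6 TPM, highest in S452A 4. Stat5a, which follows IL-7 and IL-15, lay at 13.9 to 39.8 TPM and Stat5b at 7.04 to 13.9 TPM.
Feedback inhibitors were led by Socs3 at 326 to 558 TPM and Ptpn6 at 99.7 to 190.04 TPM. Socs1 lay at 9.19 to 13.4 TPM, and Cish, a STAT5 target, at 8.38 to 15.8 TPM.

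No near-identical copy of at least 95% identity was found among the annotated transcripts for any of the 10 genes or for Jak2, Crlf2 and Il2rb. Exons of Jak3 overlap those of Insl3 by 404 bases on the same strand, and those of Il2rg overlap a predicted gene, Gm20489, by 728 bases, so reads there could be assigned to either. On the opposite strand, exons overlap for Il4ra (571 bases), Stat6 (40 bases) and Jak1 (4 bases). The libraries were strand-specific, and no source used here says whether counting used the strand.

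None of the 10 genes passed the test between genotypes, which asked whether the Pep mutation went with a different level. Limma called 1 gene of 13930 (0.00718%) at an adjusted p under 0.05, and 660 (4.74%) at an unadjusted p under 0.05; of the 10 genes, 0 were in either set. The genotypes did not overlap for 0.646% of tested genes and for 0 of the 10. For Il7r the WT libraries averaged 129 ± 45.9 TPM and the S452A libraries 188 ± 75.6 TPM (SD, n = 5 each). On the log2 scale it differed by 0.52 (SE 0.27), with a 95% interval from -0.06 to 1.11, a limma adjusted p of 0.952 and a 2-sided exact permutation p of 0.135. The difference was 0.32 without S452A 3 and 0.38 without WT 1. Il15ra differed by 0.48 (interval -0.04 to 1.0) and by 0.27 without WT 1, whereas Il15 differed by -0.37 (interval -0.85 to 0.10). Il15 was at -0.23 without WT 2. Jak3 and Il21r were at -0.26 and -0.25, Jak3 at -0.39 without WT 5 and -0.16 without S452A 1, and Il21r at -0.16 without S452A 1. The other 5 genes lay between -0.05 and 0.17; among them Il2rg was at 0.12 without WT 5, and Jak1 at 0.025 without WT 1 and 0.16 without WT 4. Differences are S452A minus WT of log2(TPM + 1), a scale that makes changes of low genes look smaller. The median over the 10 genes was 0.08, beside -0.02 over all tested genes. For Il7r the interval reaches past a doubling, so the test does not show equal levels.

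**Figure D2:**
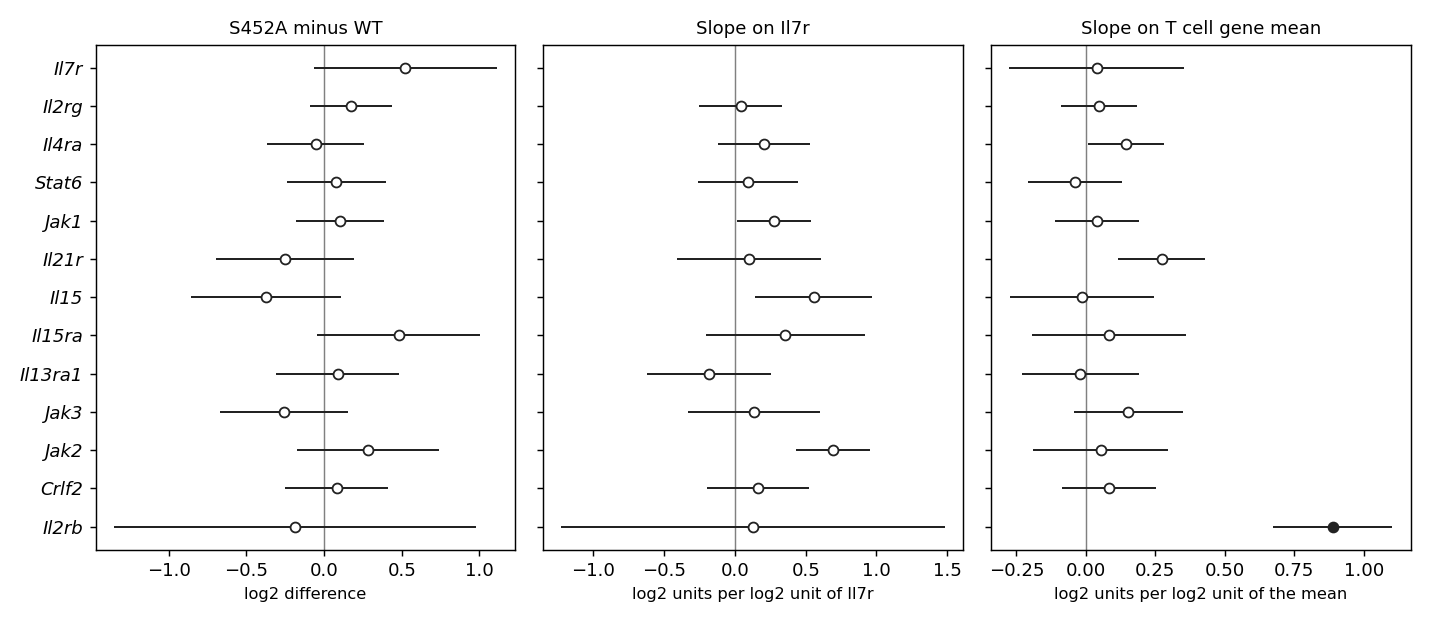
Log2 difference between genotypes (left), slope on Il7r (middle) and slope on the mean of 8 T cell genes (right), with 95% intervals from limma, for the 10 genes and for Jak2, Crlf2 and Il2rb; filled points passed at an adjusted p under 0.05. Il2rb on the T cell gene mean, at 0.89, is the sole filled point.

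Il7r showed no clear relation to the T cell genes. The mean log2(TPM + 1) of the 8 T cell genes was 3.23, 1.16, 3.88, 3.04 and 1.66 in WT libraries 1 to 5 and 1.28, 2.54, 4.02, 2.14 and 3.33 in the S452A libraries. WT 2 and S452A 1, with the fewest T cell transcripts, held Il7r at 148 and 152 TPM, above WT 3 (104 TPM), which had the most in its genotype. S452A 3, on the other hand, was the highest library in both the T cell mean and Il7r (313 TPM). Within genotypes r was -0.284 over the WT and 0.457 over the S452A libraries. With genotype means subtracted, Pearson r between Il7r and this mean was 0.084 and Spearman rho -0.127 (n = 10, permutation p = 0.822 and 0.744, adjusted over 24 lists 0.985 and 0.895). Without the 2 libraries farthest from the median of Il7r, WT 4 and S452A 3, r was -0.665, and leaving out single libraries it ran from -0.337 (without S452A 3) to 0.227, so its sign rests on S452A 3, WT 4 and S452A 1. The limma slope of Il7r on the T cell mean was 0.04 log2 units per log2 unit (95% interval -0.27 to 0.35).

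Of the family, Il2rb alone passed on that axis, and it is not among the 10. Il2rb rose with the T cell gene mean by 0.89 log2 units per log2 unit (SE 0.10, limma adjusted p = 0.00329), and was 1 of 16 genes called among 13922 (0.115%). It passed without each library in turn and did not pass with the replicate number as a block (limma adjusted p = 0.437). Il21r had a slope of 0.27 (SE 0.07, unadjusted p = 0.00228, adjusted p = 0.409) and Il4ra of 0.14 (unadjusted p = 0.0373, adjusted p = 0.996), and neither passed. These were 2 of 10 genes at an unadjusted p under 0.05, beside 4.96% of all genes. Monocyte genes rose with the T cell gene mean too. Of 6 tested, 5 had an unadjusted p under 0.05 and 2, Plac8 and Ly6c2, passed, beside 0.115% of all genes. A slope on this mean is therefore not particular to T cells. The libraries lowest in Il21r, WT 2 and 5 and S452A 1, 2 and 4, also had the lowest T cell means of their genotype. The slopes of Il15, Stat6 and Il13ra1 were -0.01, -0.04 and -0.02.

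What Il7r did vary with was the mean of 29 NF-kB and TNF genes, which encode TNF, NF-kB subunits, their inhibitors and their inflammatory targets. That mean was 7.42, 7.95, 7.67, 8.23 and 7.70 in WT libraries 1 to 5 and 7.99, 7.65, 8.47, 8.47 and 7.66 in the S452A libraries, on the log2(TPM + 1) scale. Libraries WT 4 and S452A 3 and 4 were high in both measures, and WT 1 was lowest in both. Pearson r was 0.918 (n = 10, genotype means subtracted, permutation p = 0.0004, adjusted over 24 lists 0.0096), and it was 0.895 without WT 4 and S452A 3. Within genotypes r was 0.998 over 5 WT and 0.871 over 5 S452A libraries, too few for a test. Spearman rho was 0.879 (permutation p = 0.00267) and did not pass its adjustment (0.0641). Leaving out single libraries kept r between 0.893 and 0.969. The adjusted permutation p was above 0.05 without WT 1 (0.0559), WT 2 (0.0559), WT 4 (0.0583), S452A 2 (0.0539) or S452A 5 (0.0752). The list was chosen with earlier results of these data known, among them genotype differences of its genes above 0.

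**Figure D3:**
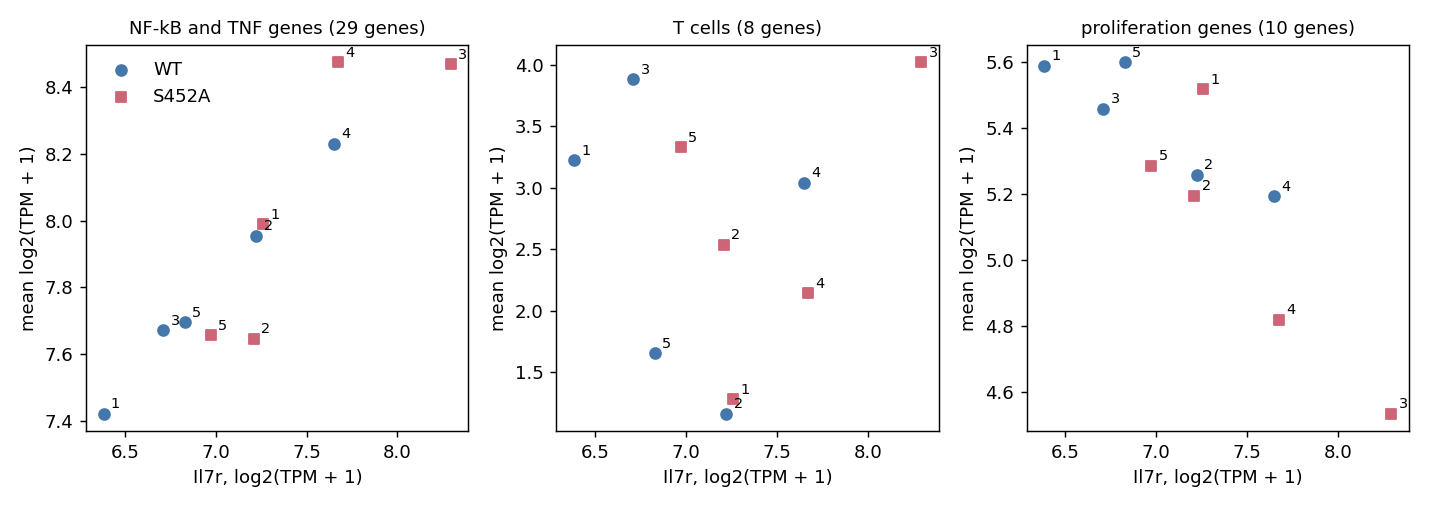
Il7r on the horizontal axis against the mean of NF-kB and TNF genes, T cell genes and proliferation genes, all as log2(TPM + 1), in 5 WT (circles) and 5 S452A (squares) libraries numbered as in the labels. The NF-kB mean rises with Il7r (r = 0.918), the T cell mean shows no clear relation to it (r = 0.084), and the proliferation mean falls (r = -0.853).

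Gene by gene the direction was the same. These genes make up the mean just given and were chosen as stated above, so their counts are not separate support. Of the 29 NF-kB and TNF genes, 29 had a slope on Il7r above 0, where 47.4% of tested genes did. Among them 27 had an unadjusted p under 0.05 and 3 passed, where 16.5% and 0.115% of 13929 tested genes did. The 3 that passed were Ier3, an early-response gene, Ptgs2, encoding cyclooxygenase-2, and Sod2, the mitochondrial superoxide dismutase. The 3 genes of highest level in the list, Cxcl2, Il1b and Ccl4, encode a neutrophil-attracting chemokine, interleukin 1 beta and a CC chemokine. Their slopes were 0.95, 0.49 and 0.59 log2 units per log2 unit of Il7r, with limma adjusted p of 0.0701, 0.0713 and 0.19. The median slope of the list was 0.61, beside -0.02 over all genes.

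Proliferation genes ran the other way. The mean of 10 such genes fell with Il7r (r = -0.853, n = 10, permutation p = 0.00288, adjusted 0.0346) and r was -0.703 without WT 4 and S452A 3. Spearman rho was -0.709 with an adjusted permutation p of 0.276, so the ranks did not pass. Leaving out S452A 3 moved r to -0.742 (adjusted permutation p = 0.234), and leaving out WT 5 (0.0408) or S452A 1 (0.0269) alone kept it past the threshold. Of the 10 genes, 10 had slopes below 0, 8 had an unadjusted p under 0.05 and 0 passed. Over all tested genes, 47.4% had slopes above 0, 16.5% had an unadjusted p under 0.05 in either direction and 0.115% passed. As the 10 genes make up the mean, their counts are not separate support. Cdk1, the mitotic kinase, Top2a, a DNA topoisomerase, and Tk1, thymidine kinase, had slopes of -0.71, -0.48 and -0.65. The proliferation mean was lowest in S452A 3, the library of highest Il7r.

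The remaining 22 lists did not pass against Il7r. The neutrophil list (4 tested genes) had r = 0.788 and the list of 6 STAT factors r = 0.781, each with an adjusted permutation p of 0.0845 over the 10 libraries. Without WT 4 and S452A 3 they fell to 0.50 and 0.41. The 7 neutrophil genes summed to 35.1 to 61.9 TPM in WT and 37.3 to 81.2 TPM in S452A, with Ly6g listed at 0 in all libraries, and their part in the relation of Il7r to NF-kB genes was not tested. Macrophage genes gave r = 0.043, monocyte genes 0.181 and mature dendritic cell genes 0.052. A list of 4 naive and memory T cell genes gave 0.391 and turned to -0.65 without WT 4 and S452A 3. Among lists related to the receptor itself, 9 factors known to act on Il7r gave 0.609, 4 FOXO1 target genes 0.573 and 5 glucocorticoid target genes 0.037. Without the same 2 libraries, r was -0.015 for the factors and -0.199 for the FOXO1 target genes.

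**Figure D4:**
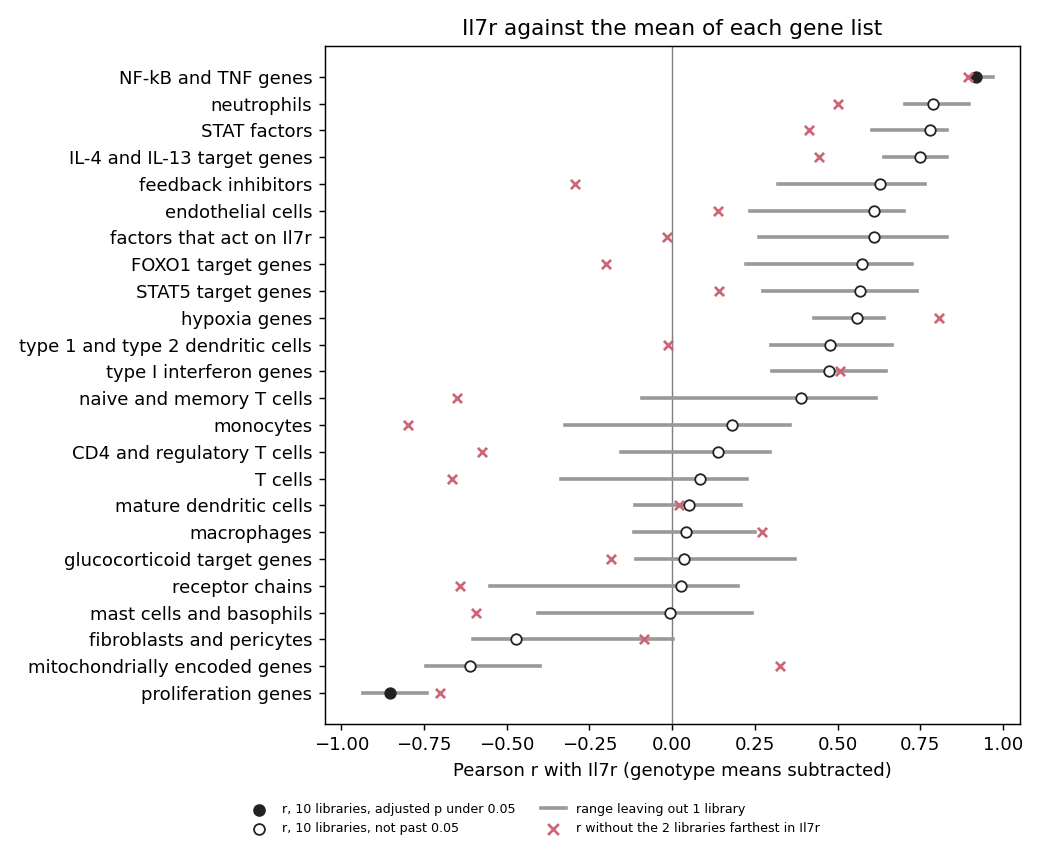
Pearson r of Il7r with the mean of each of 24 gene lists over 10 libraries, genotype means subtracted; circles are r (filled where the permutation p adjusted over the lists is under 0.05), grey lines the range when single libraries are left out, crosses r without WT 4 and S452A 3. The NF-kB and TNF list at the top and the proliferation list at the bottom are filled, and many other lists move toward 0 or change sign at the cross.

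Within the family, Il15 and Jak1 came closest to Il7r, and none passed. Il15 had a slope on Il7r of 0.56 log2 units per log2 unit (SE 0.18, 95% interval 0.15 to 0.96, unadjusted p = 0.0115, limma adjusted p = 0.177). Its Pearson r was 0.733 and its rho 0.782 with genotype means subtracted (n = 10, permutation p = 0.0249 and 0.0153), and r was 0.747 without WT 4 and S452A 3. Without subtracting genotype means r was 0.318, and the genotype differences of Il7r and Il15 had opposite signs (0.52 and -0.37). Jak1 had a slope of 0.28 (SE 0.12, unadjusted p = 0.0348, limma adjusted p = 0.268) with r = 0.731 (permutation p = 0.0231), and 0.542 without those 2 libraries. These were 2 of 9 genes at an unadjusted p under 0.05, beside 16.5% of all tested genes, and 8 of 9 slopes were above 0, beside 47.4%. The other slopes were 0.36 for Il15ra, 0.20 for Il4ra, 0.13 for Jak3, 0.10 for Il21r, 0.09 for Stat6, 0.04 for Il2rg and -0.18 for Il13ra1. Single libraries moved most of these: Il15ra was at 0.081 without WT 1, Il4ra at 0.13 without S452A 3, Jak3 at 0.067 without S452A 3 and 0.24 without S452A 5, and Il13ra1 at -0.31 without WT 4 and -0.099 without S452A 2. Stat6 was at 0.041 without S452A 4, 0.053 without S452A 2, 0.15 without S452A 5 and 0.26 without S452A 3, and the slopes of Il21r and Il2rg changed sign without S452A 3. The partner chain Il2rg thus had r = 0.115 with Il7r, with an interval of its slope from -0.24 to 0.33.

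Of 19 tested pathway genes outside the 10, 0 passed on Il7r, 5 had an unadjusted p under 0.05 (16.5% over all tested genes), and 16 had slopes above 0 (47.4% over all). Jak2, the kinase for the TSLP receptor, was nearest, at 36.3, 44.8, 35.8, 54.9 and 38.4 TPM in WT libraries 1 to 5 and at 44.6, 38.3, 80.1, 62.7 and 38.6 TPM in S452A. It was high in the same 3 libraries as Il7r, WT 4 and S452A 3 and 4. Its slope was 0.69 (SE 0.12, 95% interval 0.44 to 0.94, limma adjusted p = 0.0528). The adjusted p ranged from 0.0103 to 0.761 over alternative settings, was under 0.05 with a pseudocount of 5, median ratio scaling, a stricter filter, robust moderation or no genotype term, and was 0.199 without S452A 3. Stat5a, Stat3, Stat4 and Socs3 had slopes of 0.89, 0.47, 0.69 and 0.48 with limma adjusted p from 0.0876 to 0.215. Crlf2, the partner chain of Il7r for TSLP, had a slope of 0.16.

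No gene of the 2 target lists passed on Il7r, and counts are to be read beside the 47.4% of all tested genes with slopes above 0 and the 16.5% at an unadjusted p under 0.05. Of 15 tested IL-4 and IL-13 target genes, 12 had slopes on Il7r above 0, 7 had an unadjusted p under 0.05 and 0 passed. Their mean gave r = 0.748 (adjusted permutation p = 0.122, n = 10), and 0.445 without WT 4 and S452A 3. Arg1, encoding arginase 1, was nearest, with a slope of 0.88 (limma adjusted p = 0.0528). Egr2, Tgm2 and Irs2 had slopes of 0.68, 0.66 and 0.49. Cdh1, Chil3 and Ccl17 went the other way, at -0.55, -0.36 and -0.31. Of 7 STAT5 target genes, 6 had slopes above 0, 3 had an unadjusted p under 0.05 and 0 passed. Pim1, a survival kinase, was at 0.54 and Mcl1, which restrains apoptosis, at 0.41, while Bcl2 was at -0.06.

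Across all genes, limma called 16 with Il7r, 15 higher and 1 lower. Sgms2, a sphingomyelin synthase, was at 5.17, 15.9, 8.44, 21.9 and 9.18 TPM in WT libraries 1 to 5 and 14.1, 12.8, 30.8, 20.9 and 11.2 TPM in S452A. Its slope was 1.28 (SE 0.14, limma adjusted p = 0.0173), and it placed the libraries of each genotype in the same order as Il7r did. The other 15 shared an adjusted p of 0.0483, close to the threshold. They were Hilpda, a lipid droplet protein induced by hypoxia, Csf2rb, the shared beta chain for GM-CSF, IL-3 and IL-5, Ripk2, a kinase of NOD signalling, Mefv, encoding pyrin, and Zeb2, a transcription factor of myeloid cells, with Ier3, Ptgs2, Sod2, Stam2, Dtx2, Lpar1, Rgl1, Rab11fip1 and Zc3h11a. Dut, which hydrolyses dUTP during DNA replication, was the gene that fell. Csf2rb has a near-identical copy, Csf2rb2, and Zc3h11a has Gm38394, with which reads can be shared. The count was 0 without WT 1, 3, 4 or 5 or without S452A 2 or 5, 2 without S452A 1, 11 without WT 2, 10 without S452A 3 and 14 without S452A 4. With the T cell gene mean as a further term, 1 gene remained, of the 16 called without it. Genes at an unadjusted p under 0.05 numbered 2274 with that term and 2305 without it, and the cause of the lower call count was not tested.

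The genes most like Il7r, ranked by Pearson r over the 10 libraries with genotype means subtracted among 11168 named genes, are given as a description. They were Sgms2 (0.98), Stam2 (0.951), Ier3 (0.949), Dtx2 (0.949), Hilpda (0.948), Ndfip2 (0.948), Eif1 (0.947), Foxn2 (0.946), Rab11fip1 (0.943) and Kpna3 (0.941). Of these 10, 8 were also among the first 100 by Spearman rho. Sgms2 kept r = 0.984 without WT 4 and S452A 3, and Dtx2 r = 0.839. Eif1 has near-identical copies among annotated transcripts. At the other end were Idh2 (-0.955), the mitochondrial isocitrate dehydrogenase, Ccnb2 (-0.952), a mitotic cyclin, Dut (-0.941), Nmral1 (-0.939) and Dctpp1 (-0.938), a nucleotide hydrolase. No T cell gene of the 8 and none of the other 9 family genes was among these 15. As the 15 are the ends of 11168 ranked genes, that absence says little about either set.

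**Figure D5:**
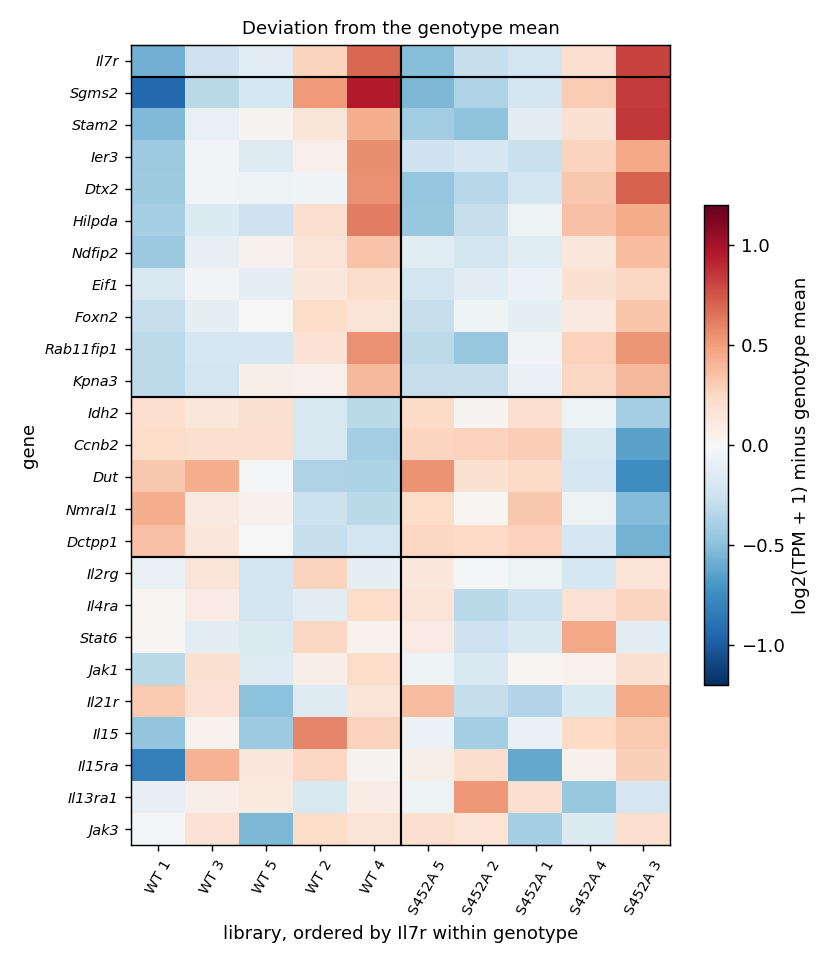
Deviation of log2(TPM + 1) from the genotype mean (colour scale limited to 1.2 either way) for Il7r, the 10 genes most like it, the 5 least like it and the other 9 family genes; columns are libraries ordered by Il7r within WT and S452A. The second block follows Il7r from blue to red in both genotypes and the third runs from red to blue. The family genes at the bottom show no order common to all, and Il15 (r = 0.733) and Jak1 (r = 0.731) come closest to Il7r.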

How the data were processed

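Bulk RNA sequencing gave 10 libraries, 5 WT and 5 S452A, each labelled as a separate mouse; the labels name no batch. Per the submitters' processing notes, STAR 2.7.9a, RSEM 1.3.0 and the genome build GRCm38.p6 were used; no source used here gives their parameters or the annotation release. A single table in TPM was deposited, with columns summing to 999999.2 to 1000001.3. Because TPM carries no counts, sequencing depth is unknown, intervals for counting error are not possible, and a fall in abundant transcripts raises the TPM of the rest.

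A gene was tested if 5 or more libraries held it at 1 TPM or more (13930 genes, 99.6% of TPM), as log2(TPM + 1), pseudocount 1, with limma 3.58.1 in R 4.3.3 (lmFit, eBayes with a trend, 2-sided, Benjamini-Hochberg over all tested genes, threshold 0.05). Fits were genotype alone, and the slope on Il7r or on the mean of 8 T cell genes with genotype as a term. The gene on the slope axis was left out of its own fit. Pearson and Spearman correlations of Il7r with means of 24 lists with at least 3 tested genes used values with genotype means subtracted and 100000 permutations within genotype; members and T cell genes were left out of other lists' means. Single genotype differences also had an exact permutation test, whose smallest p is 0.00794. The fits were tested on simulated data with independent noise for each gene, so false calls among genes that vary together were not assessed.

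The 10 genes and all lists were chosen with earlier results of these data known. The rule for named genes was: all 10 members; other pathway genes that passed a fit or pair directly with a member; the 10 genes of highest and 5 of lowest r with Il7r, leaving out predicted, clone-named and Rik genes; and the 3 genes of highest TPM in each list that passed. Other feedback, STAT and target genes and the genes called with Il7r were named after their values were seen. Positions and exon overlaps came from GENCODE M21 (55094 of 55487 rows matched by versioned identifier), copies from blastn 2.17.0 (at least 95% identity over 0.8 of the shorter transcript) and promoters from RefSeq. The rest used Python 3.11.15 with scipy 1.17.1, pandas 2.3.3, matplotlib 3.10.9 and numpy 2.4.6. Library correlations across genes were 0.936 to 0.969, and no library copied another. Alternatives were other pseudocounts, filters and scalings, robust moderation, the T cell mean as a covariate, no genotype term, ranks, a replicate block and leaving out each library.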

Additional observations from a re-analysis of the deposited data

How the results depend on the processing

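Depth is unknown for TPM, so the precision of low genes cannot be given, and 5 libraries per genotype limit every fit. The call counts depended on the setting, and the cause was not tested. With 16 genes called on Il7r, the count was 1 with a pseudocount of 0.1, 49 with a pseudocount of 5, 1 with no filter, 115 with at least 1 TPM in all libraries, 49 with robust moderation, 433 with no genotype term, 1 with the T cell gene mean as a covariate and 61 with ranks of Il7r. It ran from 0 to 14 when single libraries were left out. With 16 genes called on the T cell gene mean, the count was 7 with no filter, 30 with robust moderation, 30 with no genotype term and 8 to 25 when single libraries were left out. The 1 call between genotypes became 0 with at least 1 TPM in all libraries (565 genes at an unadjusted p under 0.05).

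The replicate numbers did not pair the libraries: correlations of deviations between same-numbered libraries were -0.148 to 0.0743, with 0 of 5 over 0.1, and 0 libraries correlated best with their own number. With the number as a replicate block, limma called 0 genes on Il7r (869 at an unadjusted p under 0.05), 0 on the T cell gene mean (690), Il2rb included, and 1 between genotypes. In the replicate block fit, slopes on Il7r changed sign for Il21r (-0.016), Il15ra (-0.022), Jak3 (-0.10), Stat6 (-0.049) and Il2rb (-0.34). Slopes on the T cell gene mean changed sign in the replicate block fit for Il7r (-0.16), Il13ra1 (0.058), Il15ra (-0.062), Jak1 (-0.071) and Jak2 (-0.10).

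No value that changed sign, here or above, had passed a test. With no genotype term, slopes on Il7r were -0.045 for Il21r and -0.024 for Jak3, and r with Il7r was -0.054 for receptor chains, -0.075 for CD4 and regulatory T cells and 0.025 for mast cells and basophils. With the T cell gene mean as a covariate the slope of Il2rb on Il7r was -0.035. For mature dendritic cells r was -0.028 with a pseudocount of 0.1, and for mast cells and basophils 0.012 with a pseudocount of 5 and 0.0052 with median ratio scaling. Rescaled without mitochondrial, histone, immunoglobulin and small RNA genes, r was -0.0096 for receptor chains and -0.058 for glucocorticoid target genes.

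Leaving out single libraries crossed 0 for these genotype differences: Il4ra (-0.12 to 0.030), Il13ra1 (-0.042 to 0.20), Stat6 (-0.035 to 0.14), Crlf2 (-0.011 to 0.17) and Il2rb (-0.55 to 0.069). Slopes on Il7r that crossed 0 were those of Il2rg (-0.072 to 0.12), Il21r (-0.21 to 0.27), Crlf2 (-0.035 to 0.31) and Il2rb (-1.01 to 0.48). On the T cell gene mean they were Il7r (-0.14 to 0.12), Il13ra1 (-0.074 to 0.022), Il15 (-0.091 to 0.13), Il15ra (-0.037 to 0.17), Stat6 (-0.096 to 0.0079) and Jak2 (-0.081 to 0.11). Correlations of Il7r crossed 0 for mature dendritic cells (-0.112 to 0.208), mast cells and basophils (-0.406 to 0.242), glucocorticoid target genes (-0.11 to 0.37), macrophages (-0.114 to 0.25) and T cells (-0.337 to 0.227). They also did so for CD4 and regulatory T cells (-0.153 to 0.297), receptor chains (-0.549 to 0.199), naive and memory T cells (-0.091 to 0.616), monocytes (-0.323 to 0.356) and fibroblasts and pericytes (-0.603 to 0.0033). With no genotype term, the neutrophil list (r = 0.827, adjusted permutation p = 0.0236) and the IL-4 and IL-13 target list (0.798, 0.0286) passed.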

Other observations

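The lists of other responses given here did not pass against Il7r. Each had a permutation p above 0.05 before the adjustment over 24 lists. Over 8 hypoxia genes, among them Vegfa, Slc2a1 and Adm, Pearson r with Il7r was 0.559 (n = 10, genotype means subtracted, permutation p = 0.113, adjusted 0.226), and it was 0.805 without WT 4 and S452A 3. Of these 8 genes, 7 had slopes on Il7r above 0 (47.4% over all tested genes). Of the same 8, 3 had an unadjusted p under 0.05 (16.5% over all) and 0 passed. The 13 type I interferon genes gave r = 0.475 (permutation p = 0.205) and 0.507 without the same libraries, with 10 of 13 slopes above 0. For 13 mitochondrially encoded genes r was -0.611 (permutation p = 0.08, adjusted 0.226) and turned to 0.327 without those 2 libraries, so its sign rests on them. Fibroblast and pericyte genes gave -0.474 (permutation p = 0.207) and, without the same 2 libraries, -0.085.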
